A study of Mus musculus with 3 samples.

Results

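The 8 genes described here encode the enzymes and the carrier that link itaconate, nitric oxide and arginine in the macrophage, and were chosen by name for these functions. They are Acod1, Nos2, Gch1, Slc7a2, Ass1, Asl, Arg1 and Arg2, which are 8 of the 55536 genes annotated in the deposited tables. Ribosome-depleted total RNA from the cytosolic fraction was sequenced in 3 libraries of macrophages derived from C57BL/6J mouse bone marrow. All 3 belong to a single group, in which cells received 100 ng/ml Lipid A, the membrane anchor of bacterial lipopolysaccharide and a ligand of TLR4, for 12 h, were washed and rested for 12 h, and received 100 ng/ml Lipid A again for 90 min. Cells given no Lipid A, or given it a single time, were not analysed here, so every value is a level in re-exposed cells and not a response. The labels number the samples as replicates 1, 2 and 3 but attach the same donor record to each, and p-values therefore measure only the spread between these samples.

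The libraries held 40730514 to 70484996 expected counts, and 1 TPM (a unit of abundance corrected for transcript length) of a transcript with 2 kb of effective length stood for 125 to 237 counts. Macrophage identity was clear, with 8 of 8 macrophage markers at 1 TPM or more in every library and a summed level of 4938 to 5794 TPM, led by lysozyme (Lyz2). Of 37 markers of 7 other cell types 2 reached that level, the neutrophil gene S100a8 at 4.12 ± 1.39 TPM and the endothelial receptor gene Kdr at 4.93 ± 3.28 TPM (SD, n = 3). In bulk RNA, fewer cells making a transcript and less of it in each cell cannot be told apart. Levels are TPM from the deposited gene table, and a value written with ± is the mean and SD of the 3 libraries (n = 3).

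Itaconate is made in the mitochondrion from cis-aconitate, an intermediate of the citrate cycle, by the decarboxylase that Acod1 encodes, and it inhibits succinate dehydrogenase. Inducible nitric oxide synthase, encoded by Nos2, turns arginine into nitric oxide and citrulline and needs the cofactor tetrahydrobiopterin, whose synthesis begins with GTP cyclohydrolase 1 (Gch1). Slc7a2 brings arginine into the cell, Ass1 and Asl rebuild arginine from citrulline, and the arginases Arg1 (cytosolic) and Arg2 (mitochondrial) split it into ornithine and urea. In mouse macrophages Acod1 and Nos2 are textbook genes of the response to lipopolysaccharide, whereas Arg1 is a common marker of macrophages exposed to interleukin 4.

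The 8 genes spanned more than 4 orders of magnitude in level, from Acod1 at 1099.8 TPM to Arg1 at 0.02 TPM. At 1 TPM or more in all 3 libraries, 5 of the 8 were detected, namely Acod1, Gch1, Ass1, Asl and Nos2, where 16.7% of all annotated genes and 40.1% of the 22028 protein-coding genes passed the same threshold. Slc7a2, at 0.64 to 0.92 TPM, and Arg2, at 0.29 to 0.88 TPM, lay below it, and Arg1 was at or near 0. Between neighbours in the order of mean levels, ranges did not overlap from Acod1 to Gch1, from Nos2 to Slc7a2 and from Arg2 to Arg1. The ranges of Gch1, Ass1, Asl and Nos2 overlapped from each neighbour to the next, as did those of Slc7a2 and Arg2, so the order of these neighbours was not resolved by 3 libraries. Within the first of these sets, Gch1 was above Asl with no overlap, and Gch1 and Ass1 were each above Nos2 in 3 of 3 libraries. Each step of this order held in the same number of libraries in the second transcript table.

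**Figure D1:**
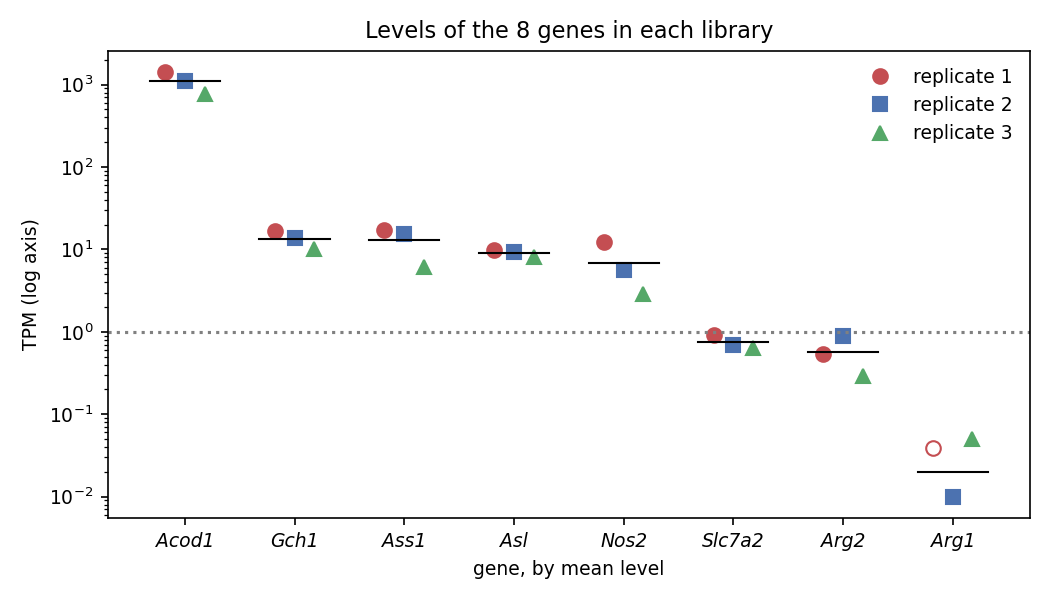
TPM (log axis) of the 8 genes in the 3 libraries, ordered by mean level; each symbol is a library, the bar is the mean, the dotted line is 1 TPM, and the open circle places the library with 0 Arg1 counts at its limit of 3 counts. Acod1 stands alone at the top, 4 genes lie between 2.90 and 17.38 TPM, and the 3 others are below 1 TPM.

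Acod1 (ENSMUSG00000022126.6, mm10 chr14:103046977-103056573, plus strand) was the 19th most abundant protein-coding gene of the libraries. Its level was 1426 TPM in replicate 1, 1096 TPM in replicate 2 and 778 TPM in replicate 3, a mean of 1099.8 ± 324 TPM that rested on 164592 to 311678 counts. Replicate 1 was the highest library and replicate 3 the lowest, and the ratio of the highest to the lowest was 1.68 after scaling by TMM (edgeR's trimmed-mean library scaling). The gene has a single annotated transcript, so no share between isoforms enters its value. In the second transcript table the level was 611 ± 166 TPM, lower on that table's own scale but with the same order of libraries.

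The promoter of Acod1 is printed because this gene was the most abundant of the 8, and that of Gch1 because it is the only other detected member whose available promoter held a searched motif. Both come from RefSeq (GRCm38.p6, the same assembly as mm10), which gave promoters for 3 of the 8 genes, and are written 5′ to 3′ on the gene's strand up to the base before the start, with motif matches in capitals. The Acod1 stretch is chr14:103046762-103046976 on the plus strand and the Gch1 stretch is chr14:47189414-47189663 on the minus strand.
Acod1: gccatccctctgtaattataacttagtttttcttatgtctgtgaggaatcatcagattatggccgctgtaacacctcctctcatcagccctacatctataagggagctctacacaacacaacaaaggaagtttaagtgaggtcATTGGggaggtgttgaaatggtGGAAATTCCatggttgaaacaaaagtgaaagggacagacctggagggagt
Gch1: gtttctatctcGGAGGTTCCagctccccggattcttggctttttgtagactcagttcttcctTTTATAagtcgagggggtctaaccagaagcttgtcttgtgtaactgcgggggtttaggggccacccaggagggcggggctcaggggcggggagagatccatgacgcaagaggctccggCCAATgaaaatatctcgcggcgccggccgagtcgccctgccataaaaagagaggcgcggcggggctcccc

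Matches were sought on both strands for GGNNNTTCC (a form of the NF-kappaB site), GAAANNGAAA (a form of the interferon-stimulated response element), TTCNNNGAA (a form of the STAT site), and the core promoter elements TATAAA and CCAAT. The Acod1 stretch held GGAAATTCC, a match on both strands over the same 9 bases, beginning 50 bases before the start, and CCAAT on the minus strand at 72 bases. In the Gch1 stretch GGAGGTTCC began 239 bases before the start, CCAAT lay at 70 bases and TATAAA on the minus strand at 188 bases, with no overlap between matches. The third available promoter, that of Ass1, held none of these letters in its 187 bases. Of 32841 promoters with 250 bases before the start, 15.7% held GGNNNTTCC, 33.9% CCAAT, 12.4% TATAAA, 7.02% TTCNNNGAA and 2.98% GAAANNGAAA. Each of the matched motifs is thus common, and a match describes only the letters present. The stretches of Acod1 (215 bases) and Ass1 (187 bases) are shorter than these windows, so the shares are not for their lengths.

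Acod1 draws its substrate from the citrate cycle. Of 24 genes of the citrate cycle and of itaconate handling 23 were detected, where 40.1% of protein-coding genes were. The median over all 24 was 25.3 TPM, beside 8.51 TPM over detected and 0.13 TPM over all protein-coding genes. The highest were Sdhb (66.2 ± 1.86 TPM) and Sdha (43.8 ± 3.42 TPM), subunits of the succinate dehydrogenase that itaconate inhibits, and malate dehydrogenase Mdh2 (51.7 ± 5.84 TPM). Oxgr1, a receptor for oxoglutarate that also binds itaconate, had 0 counts in all 3 libraries, which allows up to 0.0137 TPM. Among the handling genes, Rab32, a GTPase linked to delivery of itaconate to bacteria-containing vacuoles, was at 41.2 ± 3.53 TPM. Clybl, whose enzyme degrades citramalyl-CoA, a product of itaconate breakdown, was at 1.43 ± 0.275 TPM.

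Of the 74 related genes 58 had enough counts for the test of variability between libraries described below, and 1 of them passed, where 1.96% of all 12256 genes tested did. That share is near the background and is no result about these lists. DESeq2's outlier rule on dispersions called 0 of the 58, against 0.481% of all genes. The gene that passed in edgeR was Slc13a3, a plasma membrane carrier of dicarboxylates that also takes up itaconate, named here after its values were seen, as are Rab32 and Clybl. Its level was 13.7 TPM in replicate 1, 31.1 TPM in replicate 2 and 35.7 TPM in replicate 3 (26.8 ± 11.6 TPM; adjusted p = 0.000239, edgeR with Benjamini-Hochberg adjustment over 12256 genes). Replicate 1 was its lowest library and replicate 3 its highest, opposite to Acod1 and Nos2.

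Nos2 (ENSMUSG00000020826.8, mm10 chr11:78920787-78960254, plus strand) stood at 12.15 TPM in replicate 1, 5.70 TPM in replicate 2 and 2.90 TPM in replicate 3, from 3004, 2680 and 1016 counts. The 95% credibility intervals that the authors' program deposited for these levels were 11.6 to 12.5, 5.46 to 5.91 and 2.72 to 3.12 TPM, which do not overlap and cover counting and assignment only. Its mean of 6.92 ± 4.74 TPM placed it 4969th among protein-coding genes. Of the 7 genes with a TMM-scaled value it was the most uneven between libraries, with a highest-to-lowest ratio of 3.85 on the TMM scale, above that of 99.8% of 8838 detected protein-coding genes. The median ratio of those genes was 1.18. Nearly all Nos2 RNA was assigned to the full coding transcript Nos2-201, at 100% of the gene's TPM in the first transcript table and 98.1 ± 2.49% in the second. The level of Acod1 exceeded that of Nos2 by 6.87, 7.59 and 8.07 on the log2 scale in replicates 1, 2 and 3 (7.51 ± 0.60, 182-fold). With 3 libraries the smallest sign-flip p is 0.25, so no pair of genes is given a p-value. The gap between these genes was thus narrowest in the library where both were highest.

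Of the other synthase genes, the neuronal form Nos1 had 4, 3 and 0 counts and the endothelial form Nos3 had 1, 2 and 5 counts in replicates 1, 2 and 3. Per length, Nos2 exceeded Nos3 by 2958 (exact 95% interval 531 to 116887), 1320 (365 to 10903) and 200.1 (85.5 to 618) times, intervals that cover counting error only. Of the 3 synthase genes, Nos2 was the one detected in these libraries. Endothelial and stromal markers were uneven in the same order of libraries as Nos2, with a summed level of 9.71, 4.48 and 3.45 TPM in replicates 1, 2 and 3 and 1 of 6 detected. That sum was mostly Kdr, at 8.64, 3.73 and 2.43 TPM, while Cdh5 was at 0.44, 0.27 and 0.19 TPM, Pecam1 at 0.62, 0.46 and 0.81 TPM, and Tek, Col1a1 and Pdgfra at 0.01 TPM or less. The part of such cells in the Nos2 result was not tested.

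Gch1 (ENSMUSG00000037580.10, mm10 chr14:47153895-47189413, minus strand), the first enzyme of tetrahydrobiopterin synthesis, was at 16.75, 13.77 and 10.21 TPM in replicates 1, 2 and 3 (13.6 ± 3.27 TPM). Its counts were 2660, 4168 and 2310, and its coding transcript Gch1-201 took 99.1 ± 0.636% of the gene's TPM. The rest fell on a retained-intron transcript, at 0.67, 0.37 and 1.59% in the same order. Annotated pseudogenes Gm18811 (same strand) and Gm49134 (opposite strand) overlap the gene and had at most 4 counts each. Gch1 exceeded Nos2 in all 3 libraries, by 0.46, 1.27 and 1.82 on the log2 scale (1.18 ± 0.68), so the cofactor enzyme varied less between libraries than the synthase it serves.

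Of the enzymes after Gch1, Pts and Qdpr were near its level and Spr was lower. Pts, the next enzyme of the pathway, was at 11.7 ± 0.905 TPM and its log2 ratio to Gch1 (Gch1 over Pts) was 0.63, 0.13 and -0.20, a difference of 0.19 ± 0.42 that did not keep its sign. Without replicate 1 this mean was -0.036. Sepiapterin reductase (Spr) was at 4.23 ± 0.629 TPM, with a range of 3.64 to 4.89 TPM that did not reach that of Gch1, and Qdpr, which regenerates the cofactor, at 15.4 ± 2.83 TPM. Gchfr, the feedback regulator that restrains Gch1, had 1 count in each library. The ratio of Gch1 to Gchfr per length was 421 (exact 95% interval 75.5 to 16645), 689 (124 to 27216) and 370.2 (66.4 to 14628). Pcbd1, a carbinolamine dehydratase of the same cycle, had 0 counts in all 3 libraries, which allows up to 0.143 TPM, while its relative Pcbd2 was at 8.38 ± 1.05 TPM. Of 15 genes for other synthases, their partners and biopterin enzymes 9 were detected, again beside 40.1% of protein-coding genes. The median over all 15 was 7.30 TPM, beside 8.51 TPM over detected and 0.13 TPM over all protein-coding genes. Of 11 genes tested in this list 0 passed the edgeR variability test, 0 had an unadjusted p under 0.05 and 0 were called by DESeq2.

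Slc7a2 (ENSMUSG00000031596.15, mm10 chr8:40862396-40922308, plus strand), the cationic amino acid carrier CAT2, was low, at 0.92, 0.70 and 0.64 TPM in replicates 1, 2 and 3 (0.753 ± 0.147 TPM). These levels came from 354, 505.5 and 349 counts, so the gene was measured well although it missed 1 TPM in every library. An antisense long noncoding gene, Gm26584, overlaps it and had 2, 6.5 and 11 counts. Slc7a2 lay below Nos2 by 2.98 ± 0.77 on the log2 scale in 3 of 3 libraries. Its paralogue Slc7a1 (CAT1), the carrier of most cell types, was at 8.20, 8.13 and 5.91 TPM. The log2 ratio of Slc7a2 to Slc7a1 was -3.16, -3.54 and -3.21 (-3.30 ± 0.21), so Slc7a1 was 9.85-fold higher in level, with the least spread of all 12 pairs that had a mean.

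Of 12 other carriers of arginine and ornithine 4 were detected, a share near the 40.1% of all protein-coding genes. The median over all 12 was 0.725 TPM, beside 8.51 TPM over detected and 0.13 TPM over all protein-coding genes. In edgeR 0 of the 7 tested passed the variability test, with 0 at an unadjusted p under 0.05 and 0 by DESeq2. Slc3a2, the heavy chain that brings several light-chain carriers to the cell surface, was at 169 ± 23.7 TPM. Its light-chain partners Slc7a8, which carries neutral amino acids, and Slc7a7, which exchanges cationic for neutral amino acids, were at 45.1 ± 4.35 and 23.5 ± 3.58 TPM. Slc7a3 had 0 to 2 counts, the mitochondrial ornithine carrier Slc25a2 0 to 1, and Slc7a9 0 in every library, which allows up to 0.0404 TPM. Slc25a15, the other mitochondrial ornithine carrier, was at 1.11 ± 0.215 TPM.

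Slc7a2 has 5 annotated transcripts, and 4 of them carry either of 2 alternative coding exons that lie next to each other. The carrier is known in a high-affinity and a low-affinity form that differ in a short internal segment; which exon belongs to which form was not taken from the files. The exons are printed because the deposited tables differ on their use. The upstream exon (mm10 chr8:40908056-40908195, plus strand, 140 bases, in Slc7a2-202 and Slc7a2-203) and the downstream exon (mm10 chr8:40908398-40908534, plus strand, 137 bases, in Slc7a2-201 and Slc7a2-204) share 84 of 137 aligned bases, or 61.3%. Capitals mark the bases that differ or are unaligned.
upstream exon: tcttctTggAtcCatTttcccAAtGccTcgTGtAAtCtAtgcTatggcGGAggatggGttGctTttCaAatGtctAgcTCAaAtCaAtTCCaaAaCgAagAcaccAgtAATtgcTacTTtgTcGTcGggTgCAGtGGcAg
downstream exon: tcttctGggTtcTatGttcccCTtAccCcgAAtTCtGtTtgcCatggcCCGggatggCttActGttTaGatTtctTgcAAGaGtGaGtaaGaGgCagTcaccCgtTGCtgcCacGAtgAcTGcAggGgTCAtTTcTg

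In the first transcript table, transcripts with the upstream exon took 62.0, 74.5 and 94.8% of Slc7a2 TPM in replicates 1, 2 and 3, a mean of 77.1 ± 16.6%. In the second table the same transcripts took 98.7, 95.6 and 94.98%, a mean of 96.4 ± 1.99%. By these shares of whole transcripts the upstream exon was the major form in every library and in both tables. The downstream share was 38.0, 19.4 and 5.16% in the first table and 1.30, 1.02 and 5.02% in the second. In replicate 1 of the first table the majority is uncertain, with 185.28 counts on upstream and 168.72 on downstream transcripts. The posterior SD there was 46.2 counts for Slc7a2-203 and 44.2 for Slc7a2-201. The tables parted mainly on Slc7a2-201, the longest transcript, which held 168.72, 117.43 and 6.87 counts in the first table with posterior SDs of 44.2, 44.3 and 27.2 counts. The second table gave it fewer than 1 count in every library. The difference between replicates in the first table was therefore not seen in the second, and its cause was not tested.

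**Figure D2:**
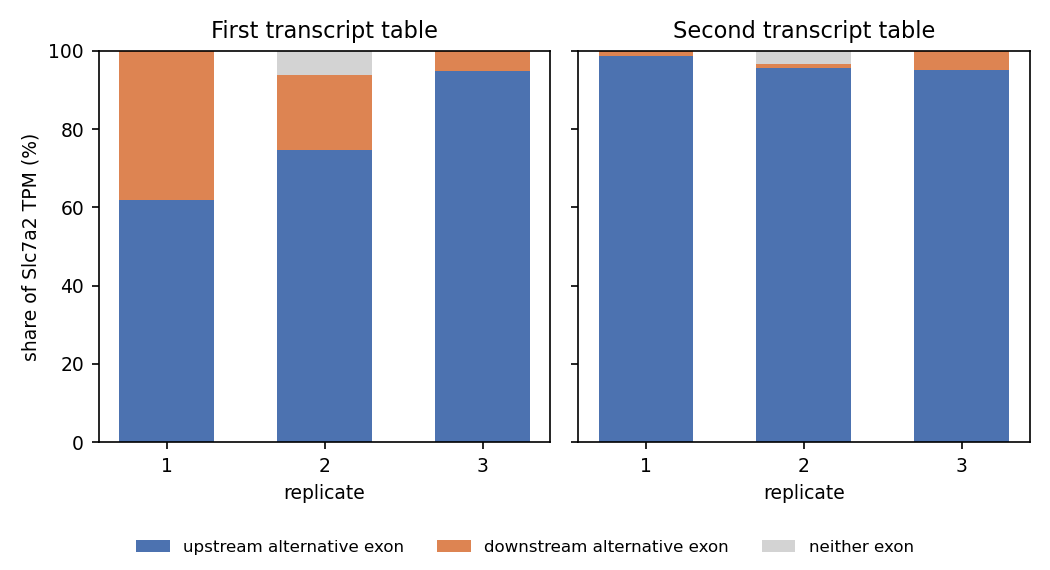
Share of Slc7a2 TPM (%) from transcripts with the upstream exon, the downstream exon or neither, for each replicate in the first (left) and the second (right) transcript table. The upstream exon takes 62.0 to 94.8% on the left and 94.98 to 98.7% on the right.

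Ass1 (ENSMUSG00000076441.9, mm10 chr2:31470207-31520672, plus strand), which joins citrulline and aspartate to argininosuccinate, was at 17.38 TPM in replicate 1, 15.36 TPM in replicate 2 and 6.09 TPM in replicate 3 (12.9 ± 6.02 TPM). Replicates 1 and 2 were close and replicate 3 was well below both. Its counts were 1581, 2682 and 788 with posterior SDs of 1.84, 2.08 and 1.39, so reads were assigned to the gene with little uncertainty. All were assigned to the coding transcript Ass1-201. Asl (ENSMUSG00000025533.15, mm10 chr5:130011258-130029247, minus strand), which releases arginine from argininosuccinate, was even, at 9.73, 9.44 and 7.99 TPM (9.05 ± 0.932 TPM). Of its 8 annotated transcripts the coding Asl-205 took 84.9 ± 2.90% and the coding Asl-202 11.0 ± 2.70% in the first transcript table. In the second they took 78.6 ± 6.90% and 12.3 ± 7.25%.

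The log2 ratio of Ass1 to Asl was 0.84, 0.70 and -0.39 in replicates 1, 2 and 3 (0.38 ± 0.67). Ass1 was thus the higher of the recycling pair in 2 of 3 libraries and the lower in replicate 3, and the levels did not differ beyond their spread. Ass1 exceeded Nos2 per length in all 3 libraries, by 0.52, 1.43 and 1.07 on the log2 scale (1.01 ± 0.46). In counts not corrected for length the mean was -0.43, since Nos2 is the longer transcript. Both recycling transcripts were therefore present at or above the level of the synthase that makes citrulline, except that Asl was below Nos2 in replicate 1.

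Arg1 (ENSMUSG00000019987.9, mm10 chr10:24915221-24927484, minus strand) was at the edge of detection, with 0, 2 and 1 counts in replicates 1, 2 and 3. In the first transcript table both counts of replicate 2 fell on the coding transcript Arg1-201, and the single count of replicate 3 on a short retained-intron transcript, where it is listed at 0.05 TPM. A count of 0 in the coding transcript allows up to 0.0388 TPM in replicate 1 and 0.0273 TPM in replicate 3. Taking the length of the coding transcript, Nos2 was 313-fold above the limit of 3 Arg1 counts in replicate 1. The exact 95% lower bound of its ratio to Arg1 there was 254. Against the observed Arg1 counts Nos2 was 423 times (exact 95% interval 117 to 3498) higher in replicate 2 and 319 times (57.1 to 12598) in replicate 3. The value for replicate 3 sets the retained-intron count over the coding length. Against the limit of 3 counts Nos2 was 106-fold higher there.

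Arg2 (ENSMUSG00000021125.6, mm10 chr12:79130777-79156301, plus strand) was low, at 0.54, 0.88 and 0.29 TPM in replicates 1, 2 and 3 (0.57 ± 0.296 TPM), from 40.1, 125 and 31.1 counts. Alone among the 7 genes with enough counts to test, it was highest in replicate 2. At its 3′ end the gene overlaps 285 bases of Vti1b on the opposite strand, which was at 30.42, 29.95 and 28.91 TPM, and, since no source states strand-aware counting, the reads of the shared stretch cannot be told apart. The part of Vti1b reads in the Arg2 counts, and so in every ratio of Arg2, was not tested. On the counts as deposited and per length, Arg2 was 13.9-fold above the limit of 3 Arg1 counts in replicate 1. The exact 95% lower bound of its ratio to Arg1 there was 10.8. Against the observed Arg1 counts it was 65.0 times (exact 95% interval 17.6 to 543) higher in replicate 2. In replicate 3 it was 32.3 times (5.38 to 1315) higher against the single retained-intron count, and 10.6-fold above the limit of 3 counts. Its log2 ratio to Nos2 was -4.49, -2.70 and -3.32, and Acod1 exceeded it by 11.01 ± 0.63 on the same scale. By the mean ratio Nos2 was 11.3-fold higher than Arg2.

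Downstream of arginase, ornithine decarboxylase (Odc1), the entry to polyamine synthesis, was at 20.15, 34.03 and 24.17 TPM (26.1 ± 7.14 TPM) and, like Arg2, highest in replicate 2. Arg2 was 49.4-fold below it by the mean ratio (log2 -5.63 ± 0.65). Of 23 genes of the urea cycle and of ornithine, polyamine and dimethylarginine metabolism 15 were detected, where 40.1% of protein-coding genes were. The median over all 23 was 3.70 TPM, beside 8.51 TPM over detected and 0.13 TPM over all protein-coding genes. Of 17 tested 0 passed the edgeR variability test, 1 had an unadjusted p under 0.05 and DESeq2 called 0. The highest were Sat1 (142 ± 24.2 TPM), which acetylates polyamines for export, the Odc1 inhibitor Oaz1 (108.6 ± 12.4 TPM) and Azin1 (38.9 ± 1.99 TPM), which relieves that inhibition. The mitochondrial genes that start the hepatic urea cycle were at 0 counts in all 3 libraries, with limits of 0.00902 TPM for Cps1, 0.0198 TPM for Otc and 0.0251 TPM for Nags. These cells thus held transcripts for the citrulline-to-arginine part of the cycle and not, at this depth, for its first mitochondrial steps.

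**Figure D3:**
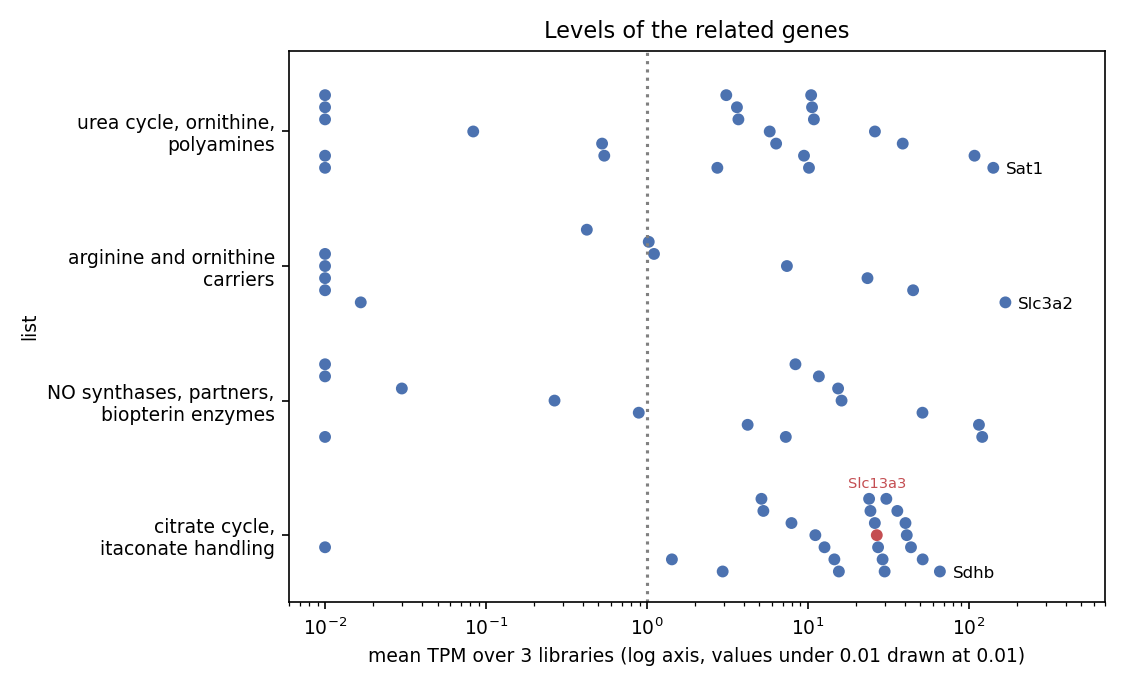
Mean TPM over 3 libraries (log axis; values under 0.01 drawn at 0.01) of the 74 related genes in 4 lists; the dotted line is 1 TPM, the most abundant gene is named in 3 of the lists and the red point is Slc13a3, the single one past the variability test. Citrate cycle genes lie mostly above 1 TPM, with 23 of 24 detected, and arginine carriers mostly near or below it, with 4 of 12 detected.

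Because there is 1 group, the test available across genes asks which genes varied more between libraries than genes of like level. edgeR's negative binomial model was fitted to all 12256 genes with enough counts, and 240 of them, 1.96%, passed a Benjamini-Hochberg adjusted p of 0.05. Of the 8 genes 7 were tested, since Arg1 had too few counts, and 2 passed, Nos2 (adjusted p = 7.74e-09, edgeR) and Ass1 (adjusted p = 0.000227, edgeR). Their variation beyond counting error (edgeR's biological coefficient of variation, moderated toward genes of like level) was 40.0 and 30.8%. The values for genes of their level were 13.1 and 13.2%. Ass1 owed its call to replicate 3, and without it the adjusted p was 0.9997, while for Nos2 it was 0.0499 without replicate 1, 4.53e-07 without replicate 2 and 0.0206 without replicate 3, so that call barely passed without replicate 1. DESeq2's outlier rule called Nos2 alone of the 7, against 0.481% of all genes. For Arg2 the highest-to-lowest ratio of 2.81 on the TMM scale was larger than the 2.61 of Ass1, but at 31 to 125 counts it did not pass (adjusted p = 0.626, edgeR). Acod1, Gch1, Slc7a2 and Asl had adjusted p-values of 0.998 or more in edgeR, and Asl had the smallest ratio, 1.13.

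All 5 detected genes were highest in replicate 1 and lowest in replicate 3 in TPM, an order that 32.4% of detected protein-coding genes also showed. With TMM scaling it was again 5 of 5 against 18.5%. With TPM rescaled to nuclear protein-coding genes, which leaves out those of the mitochondrial genome, it was 4 of 5 against 11%. Asl was then highest in replicate 2. Rescaling matters here because nuclear protein-coding genes held 33.2, 29.6 and 28.0% of all TPM in replicates 1, 2 and 3. On the TMM scale Nos2 lay 1.00 above its own mean in replicate 1 and 0.94 below it in replicate 3 in log2 units, Acod1 0.37 above and 0.38 below, and Gch1 0.28 above and 0.30 below. Ass1 differed in shape, at 0.51 and 0.37 above in replicates 1 and 2 and 0.88 below in replicate 3. Over detected protein-coding genes the 10th and 90th percentiles were -0.19 and 0.24 in replicate 1 and -0.19 and 0.15 in replicate 3.

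**Figure D4:**
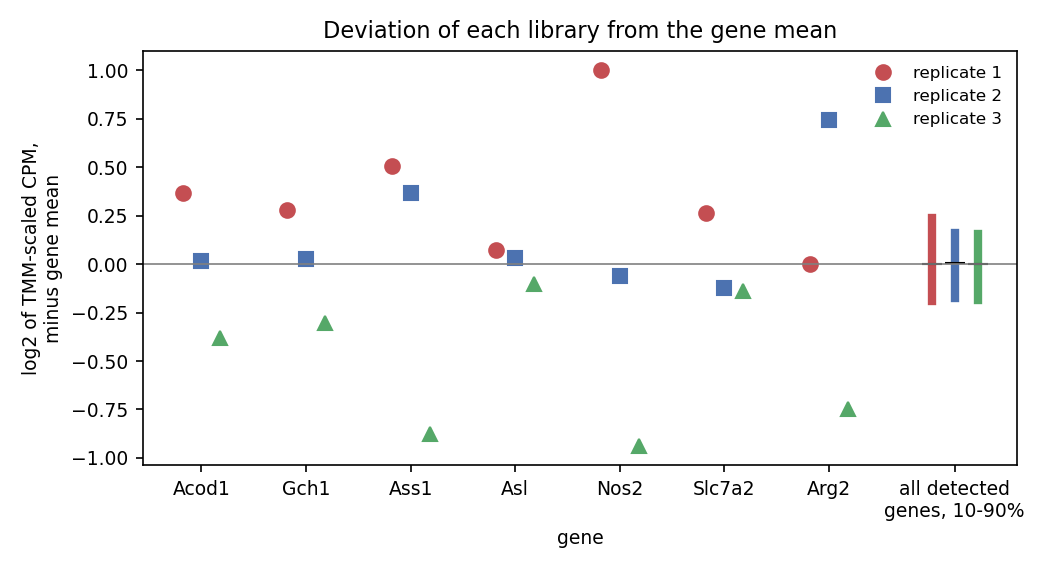
Deviation of each library from the gene's mean in log2 TMM-scaled CPM, for the 7 tested genes, with bars for the 10th to 90th percentile of 8838 detected protein-coding genes at the right. Nos2 spreads from 1.00 to -0.94, Asl stays within 0.07 and -0.10, and Arg2 is the gene highest in replicate 2.

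Ratios within a library compare genes without the library's scale. Of 14 pairs, 12 kept their sign in all 3 libraries, and the exceptions were Gch1 to Pts and Ass1 to Asl. The 12 include Arg2 to Arg1 and Nos2 to Nos3, which had no mean. Their second gene was at 0 TPM in at least 1 library, and a ratio over 0 was counted as positive. The log2 ratios to Nos2 had SDs of 0.46 for Ass1, 0.60 for Acod1, 0.68 for Gch1, 0.77 for Slc7a2 and 0.91 for Arg2, and all 5 were lowest in replicate 1. Ratios that do not involve Nos2, Arg2 or Ass1 had SDs of 0.21 to 0.52.

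**Figure D5:**
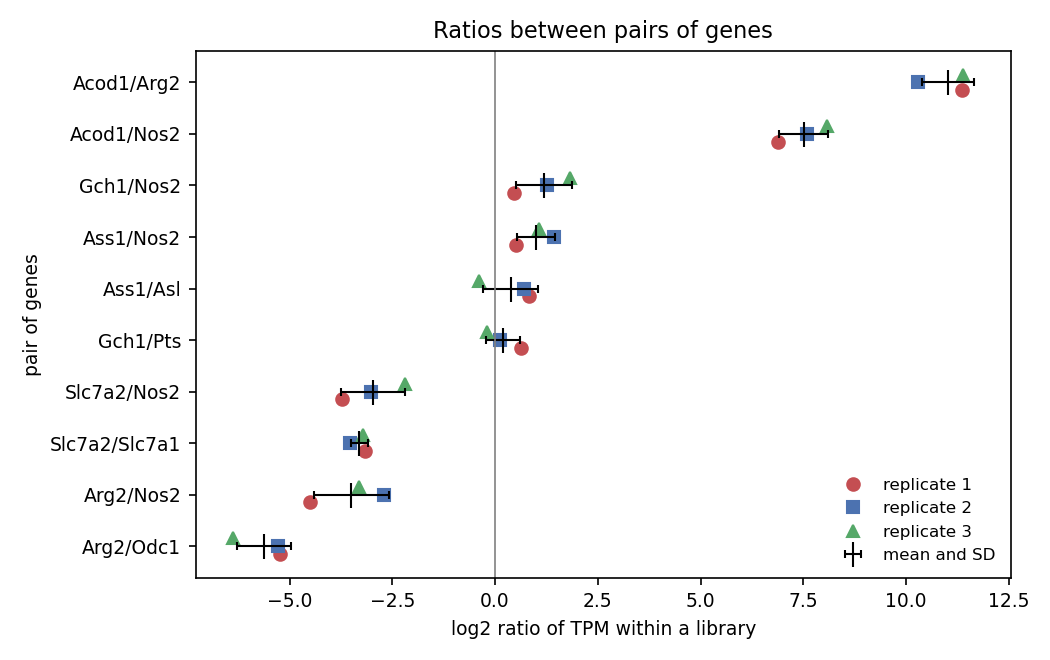
Log2 ratio of TPM for 10 pairs of genes in each library, with mean and SD (n = 3); pairs against near-absent genes are among those left out. Ass1 to Asl and Gch1 to Pts cross 0, and the other 8 pairs stay on 1 side of it.

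The genes nearest to Acod1, Nos2 and Gch1 were found by the Euclidean distance of log2(TPM + 1) over the 3 libraries, which reads both level and library order and was computed for every other protein-coding gene. Nearest to Acod1 were Ly6e (distance 0.257; 1399.96, 1104 and 928 TPM), Ifitm3 (0.337), an interferon-induced membrane protein gene, and Itm2b (0.430). Nos2 was nearest to Mmp12 (0.156), the macrophage elastase, at 11.12, 6.05 and 2.71 TPM in replicates 1, 2 and 3, then to Gca (0.244) and the interleukin 7 receptor gene Il7r (0.412). Each of these was highest in replicate 1 and lowest in replicate 3, as Nos2 was. For Gch1 the distances were smaller, with Pkp4 at 0.0301, Katna1 at 0.0604 and Clk1 at 0.0629. These genes were picked for their closeness, and with 3 libraries a like pattern is a description only.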

How the data were processed

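Every library came with gene-level values and 2 sets of transcript-level values on mm10 and GENCODE M21, per the deposited README notes. The sources used here name neither the programs nor the use of strand. Expected counts and estimated counts are reads assigned to a gene or transcript by the authors, not normalized, per the file headers. TPM values were computed by the authors from effective lengths and used as deposited. The percent values in the deposited first transcript table give a transcript's share of its gene's TPM, per the file headers. The posterior SD and the credibility bounds are other values of the authors' program, per the file headers.

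The 3 replicates form 1 group. The 8 genes, the 4 lists of related genes and the tests were chosen with earlier results of these data known. Named genes are the 8 genes, the genes of 14 pairs, the 3 most abundant and up to 3 undetected members of each list, and the 3 nearest genes to Acod1, Nos2 and Gch1. Others were chosen after their values were seen, and some genes of the pairs and lists are not reported here. For variability, expected counts of annotated genes were rounded, filtered by filterByExpr and scaled by TMM in edgeR 4.0.16 (R 4.3.3). The residual deviance of each gene at the trended dispersion was compared with chi-square on 2 degrees of freedom, with Benjamini-Hochberg adjustment at 0.05. Data were simulated for this test with 12256 genes, each at the trended dispersion that the test assumes. Of genes changed 4-fold in 1 library 85% were called, of those changed 16-fold 98%, and of 12056 unchanged genes 0. Genes off the trend were not simulated, so these values do not give the rate of false calls in the real libraries. Pairs are log2 ratios of TPM within a library. Near-absent genes were compared as counts per effective length with exact (Clopper-Pearson) 95% intervals, and limits for 0 counts are 3 counts. Exons were read from the GENCODE transcripts and promoters from RefSeq. DESeq2 1.42.0 was an alternative, among 21 listed, and 0 were added later.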

Additional observations from a re-analysis of the deposited data

How the results depend on the processing

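The count of detected genes was 6 at 0.5 TPM, 4 at 5 TPM and 5 in the second transcript table. It was 7 with TPM over nuclear protein-coding genes, which multiplies each TPM by 3.02 to 3.58, and 5 with any replicate left out. The share of all genes was computed only for 1 TPM on the deposited scale. The counts at other settings thus have no background beside them. The count of variable genes was 2 under other scalings, no filter, a common dispersion and the second table's counts. It was 1 by DESeq2's dispersion outliers, and 1 to 2 with each replicate left out. Of all genes tested, 1.25 to 2.49% were called in edgeR with all 3 libraries, 0.481% by DESeq2 and 0.654 to 0.932% with a replicate left out. The Slc7a2 share with the upstream exon was 96.4% in the second table, and 68.3 to 84.7% with each replicate left out. Of the alternative log2 ratios 57 stayed within 1 SD, 13 moved and 2 reversed. The reversals were Gch1 to Pts with a replicate left out (range -0.036 to 0.380, negative without replicate 1) and Ass1 to Nos2 in expected counts (-0.43, uncorrected for length). Of the alternative levels 28 stayed within 1 SD and 12 moved, 8 of them with TPM over nuclear protein-coding genes. No paired analysis was possible because there is 1 group. Depth limits the arginase comparison, where Arg1 had 0 to 2 counts.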
